A study of Mus musculus with 9 samples.

Results

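The genes described are Cx3cr1, Itgam, Itgb2, Itgal and Itgax, in the atrioventricular (AV) node of the mouse, the relay that passes the heartbeat from the atria to the ventricles. They were taken by symbol because Cx3cr1 and Itgam lend their names to the mouse models of the study and the other members are the partners of Itgam in its integrin family. All 5 were found among the 34198 gene symbols of the table. The 9 bulk RNA-sequencing libraries came from microdissected AV nodes of C57BL/6J mice. Libraries 1 to 3 were from mice with the genotype given as control, and libraries 4 to 6 from mice labelled Cx3cr1 Cx43-/-, a name that gives a deletion of connexin 43 (gene Gja1) and Cx3cr1 as the driver. Libraries 7 to 9 were from Cd11bDTR mice described as macrophage-depleted. The age of the mice, the dose and timing of the toxin, the exact Cre line and whether control mice carried Cre or received toxin are not stated in the labels. The series describes the 3 libraries of a group as biological replicates and does not say whether nodes were pooled or whether each library was a separate mouse, so the p-values measure the spread between these libraries.

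CX3CR1 is the receptor for fractalkine (CX3CL1), a chemokine that is tethered to the cell surface on a mucin stalk and can be shed by the proteases ADAM10 and ADAM17. It couples to inhibitory G proteins and is carried by monocytes and by many tissue macrophages, including part of those in the heart, which is why its locus is often used to drive Cre recombinase in macrophages. Itgam encodes CD11b, the alpha subunit that pairs with CD18, the product of Itgb2, to form the integrin Mac-1 (complement receptor CR3) of monocytes, macrophages, neutrophils and natural killer cells. CD18 also pairs with CD11a (Itgal) in LFA-1, the main leukocyte integrin of lymphocytes, with CD11c (Itgax) of dendritic cells and some macrophages, and with CD11d (Itgad). The alpha subunits need CD18 to reach the cell surface. In CD11b-DTR mice a CD11b promoter drives a receptor for diphtheria toxin, so that cells using the promoter die when toxin is given. In a Cre or toxin model of this kind, the level of the driver gene in the tissue is a measure both of the cells that carry it and of its use per cell, and in bulk RNA fewer cells of a type and less RNA per cell cannot be told apart.

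The stretch just upstream of the transcription start is shown for Cx3cr1, Itgam and Itgax, the members with a promoter sequence at hand, from the RefSeq sequences of the GRCm38.p6 build. These are sequences of the mouse genes themselves, and the promoter built into the toxin receptor mice was not examined. Each run holds the 250 bases before the start, 5′ to 3′ on the gene's own strand. Capitals mark GAGGAA or its reverse complement TTCCTC, a core recognised by PU.1, the transcription factor of myeloid cells. No other motif was searched.
Cx3cr1, chr9:120068297-120068546, minus strand: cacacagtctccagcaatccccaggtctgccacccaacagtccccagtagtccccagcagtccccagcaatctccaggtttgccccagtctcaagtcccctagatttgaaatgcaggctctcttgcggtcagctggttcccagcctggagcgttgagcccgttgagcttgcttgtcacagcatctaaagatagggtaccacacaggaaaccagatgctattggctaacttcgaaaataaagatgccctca
Itgam, chr7:128062390-128062639, plus strand: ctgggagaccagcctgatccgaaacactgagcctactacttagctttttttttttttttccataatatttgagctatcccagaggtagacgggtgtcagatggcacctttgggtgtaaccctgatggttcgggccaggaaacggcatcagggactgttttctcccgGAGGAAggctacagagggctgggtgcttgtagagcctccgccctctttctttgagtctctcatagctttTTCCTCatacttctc
Itgax, chr7:128129300-128129549, plus strand: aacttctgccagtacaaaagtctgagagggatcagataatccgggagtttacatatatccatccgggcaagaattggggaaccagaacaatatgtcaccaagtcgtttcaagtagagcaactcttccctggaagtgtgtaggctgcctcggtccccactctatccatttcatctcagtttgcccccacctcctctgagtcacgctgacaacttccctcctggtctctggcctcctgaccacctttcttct
The Itgam run held the letters at 2 places, 84 to 79 bases and 15 to 10 bases before the start. The Cx3cr1 and Itgax runs did not hold them. Over the 32851 promoter runs of the same length, 23.3% held the letters at least once and 3.54% at 2 or more places. A match describes the sequence and is not evidence of binding in these nodes. Promoters were at hand for 3 of the 5 members. Itgam, Itgax and Itgad lie next to each other on chromosome 7, with no other protein-coding gene between them in the RefSeq order of the same build, while Itgal lies elsewhere on that chromosome, between Sephs2 and Zfp768.

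Values are CPM as deposited, that is, counts relative to the size of the library. The listed genes held 28.3% to 48.7% of the total of 1000000 that CPM is scaled to, and 14713 to 18748 symbols stood above 0. Low values moved in steps of 0.0154 to 0.0192 CPM, the worth of 1 read, so that 1 CPM corresponded to about 52.1 to 64.9 reads. Without molecular identifiers such reads are not independent molecules. In libraries 2, 8 and 9 fewer symbols had 6 to 10 reads than 16 to 20 reads (ratios of 0.463, 0.627 and 0.542), whereas the ratio was 1.41 to 2.52 in the other 6 libraries. The part of this difference in the results was not tested, and the counts of calls without libraries 2 and 8 stand beside the results they change. Those counts still include library 9, without which library 7 would be the only macrophage-depleted library left. As a check of the labels, Gja1 read 246, 163 and 211 CPM in control and 179, 229 and 250 CPM in Cx3cr1 Cx43-/- nodes, so these levels do not check the deletion, which the labels place in cells named by Cx3cr1 while cardiac muscle is a known source of Gja1. Csf1r, the growth-factor receptor of macrophages, read 75.4, 41.5 and 61.1 CPM in control, 64.3, 76.99 and 73.1 CPM in Cx3cr1 Cx43-/- and 7.77, 6.04 and 11.8 CPM in macrophage-depleted nodes, so that the depleted libraries lay below all others.

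Changes were tested with limma on log2(CPM + 0.5) in a single model of the 9 libraries, over the 12925 genes that reached 1 CPM in at least 3 libraries, with calls at an adjusted p under 0.05 (Benjamini-Hochberg). All 5 members passed this filter. Itgax did so with exactly 3 libraries, and the fifth beta-2 partner Itgad, at 0 to 0.53 CPM, did not pass it. Between macrophage-depleted and control nodes 1 of the 5 members was called, Cx3cr1, which was lower. Of all genes tested in that comparison 36.2% were called, 33% as lower and 3.23% as higher, so that a single call among 5 members is no larger a share than the background. Likewise only Cx3cr1 had groups that did not overlap, as did 41.6% of all genes, 38% with the depleted libraries lower and 3.61% with them higher. The median log2 change over all genes was -0.49, and the members ranged from -1.24 to 0.31. Cx3cr1 was the member furthest below that median and Itgam the one furthest above it.

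**Figure D1:**
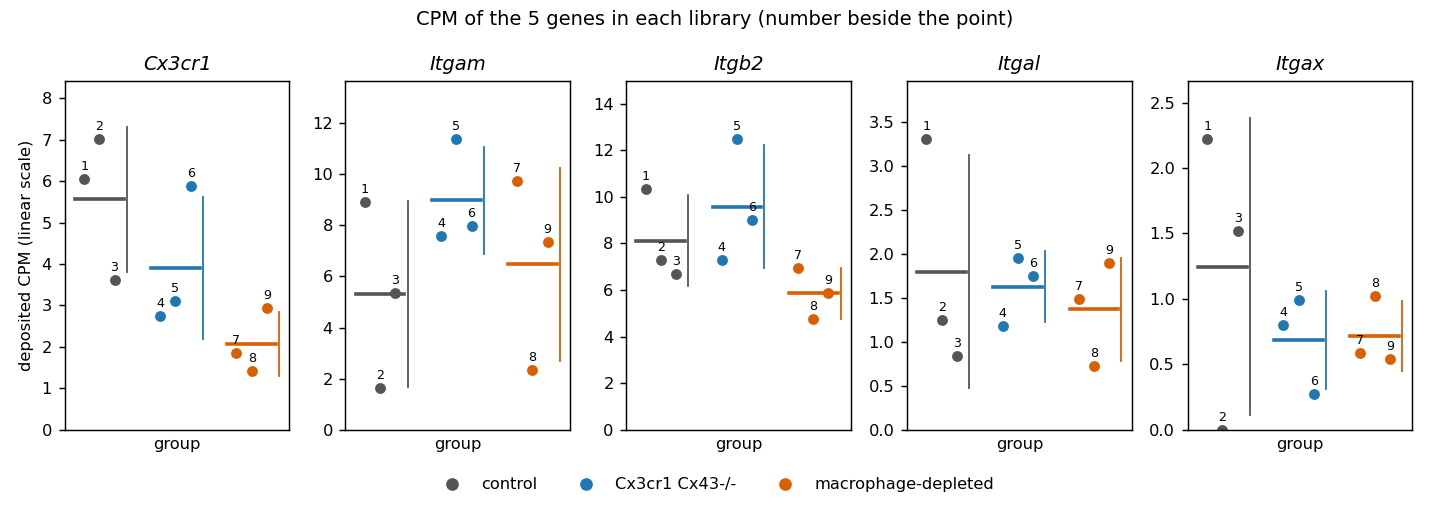
CPM of Cx3cr1, Itgam, Itgb2, Itgal and Itgax in each of the 9 libraries, by group. Points are libraries with their numbers, horizontal bars are group means and vertical lines span 1 SD to either side. Macrophage-depleted libraries lie below all control libraries for Cx3cr1, while Itgam is lowest in libraries 2 and 8, which belong to different groups.

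Cx3cr1 stood at 6.06, 7.01 and 3.61 CPM in the control libraries 1 to 3, about 207 to 379 reads. It stood at 2.74, 3.11 and 5.87 CPM in Cx3cr1 Cx43-/- libraries 4 to 6 and at 1.85, 1.42 and 2.93 CPM in macrophage-depleted libraries 7 to 9. Every depleted library was below every control library, whereas the Cx3cr1 Cx43-/- libraries overlapped both other groups. The group means were 5.56 ± 1.75, 3.91 ± 1.71 and 2.07 ± 0.778 CPM (SD, n = 3 each), in the order control, Cx3cr1 Cx43-/- and macrophage-depleted. Cx3cr1 fell in macrophage-depleted nodes by 1.24 on the log2 scale (SE 0.36, 95% confidence interval -1.97 to -0.50, limma adjusted p = 0.0105). Among the changes of all genes this value was at the 9.30th percentile, and relative to the median gene the difference was -0.75. The call rested on the scaling of the deposited CPM. After the listed genes of each library were brought to a common total the value was -0.95 (limma adjusted p = 0.0804), after median-of-ratios scaling -0.82 (adjusted p = 0.134) and after quantile normalization -0.70 (adjusted p = 0.182). Without libraries 2 and 8 the value was -0.87 (adjusted p = 0.0804), and without libraries 2, 8 and 9 it was -1.14. The adjusted p of the last, 0.0351, rests on 1 depleted library, which limma takes to vary like the other groups.

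In the mice named for it, Cx3cr1 had the lowest mean change of the members against control, though it was not called. Some Cx3cr1 Cre alleles replace the coding sequence of the copy they sit in, and the labels do not say whether the mice carried such an allele. Libraries 4 and 5, at 2.74 and 3.11 CPM, were below all 3 control libraries, and library 6, at 5.87 CPM, was close to library 1. The log2 difference from control was -0.48 (SE 0.36, 95% confidence interval -1.22 to 0.26), with an unadjusted limma p of 0.191 and an adjusted p of 1. Among all genes this difference was at the 1.20th percentile. Changes were small over all genes in that comparison, with a median of 0.07 and a 5th percentile of -0.27, which is smaller in size than the SE of Cx3cr1. The interval includes 0. Between macrophage-depleted and Cx3cr1 Cx43-/- nodes Cx3cr1 differed by -0.76 (SE 0.36, limma unadjusted p = 0.0452, limma adjusted p = 0.0873).

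Itgam, the driver of the toxin receptor model, was not called in the mice of that model. It stood at 8.93, 1.64 and 5.37 CPM in control, at 7.57, 11.4 and 7.99 CPM in Cx3cr1 Cx43-/- and at 9.72, 2.34 and 7.35 CPM in macrophage-depleted libraries. Libraries 2 and 8 were far below the rest of their groups, and 2 of the 3 depleted libraries lay above the median control library. The means were 5.31 ± 3.65, 8.98 ± 2.08 and 6.47 ± 3.77 CPM (SD, n = 3 each), so that control and macrophage-depleted nodes did not differ beyond their spread. The log2 difference between macrophage-depleted and control was 0.31 (SE 0.44, 95% confidence interval -0.60 to 1.23, limma adjusted p = 0.591), at the 91.0th percentile of all genes. Its direction depended on single libraries, with 0.87 without library 8, -0.28 without library 2 and -0.06 without library 7, and it was -0.59 with library quality weights. The interval does not reach the fall of Csf1r, which was -2.74 on the log2 scale (limma adjusted p = 3.34e-08).

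In Cx3cr1 Cx43-/- against control nodes Itgam had the largest difference of the members, 0.93 on the log2 scale (SE 0.44, 95% confidence interval 0.01 to 1.84). The unadjusted limma p was 0.0470 and the adjusted p was 1. No member was called in this comparison, and of all genes 0.00774% were called, which is 1 gene. At an unadjusted limma p under 0.05 there were 191 genes, Itgam being the only member among them. In no member were the groups apart without overlap, as they were in 8.94% of all genes, 5.94% with Cx3cr1 Cx43-/- libraries higher and 3% with them lower. Itgam lay at the 99.4th percentile of the differences, but the groups overlapped. Without library 2, whose Itgam level was the lowest of the 9, the value was 0.33.

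Itgb2, the shared beta subunit, varied least within groups of the members. It stood at 10.4, 7.29 and 6.70 CPM in control, 7.27, 12.5 and 8.99 CPM in Cx3cr1 Cx43-/- and 6.95, 4.76 and 5.88 CPM in macrophage-depleted libraries. The depleted libraries lay below all Cx3cr1 Cx43-/- libraries and overlapped control only through library 7. The means were 8.11 ± 1.96, 9.58 ± 2.65 and 5.86 ± 1.10 CPM (SD, n = 3 each). The log2 difference of macrophage-depleted from control was -0.43 (SE 0.28, limma adjusted p = 0.236), which is 0.06 above the change of the median gene, and the sign turned with median-of-ratios scaling (0.03) and quantile normalization (0.08). From Cx3cr1 Cx43-/- it was -0.65 (SE 0.28, limma unadjusted p = 0.0322, limma adjusted p = 0.0677). In macrophage-depleted against Cx3cr1 Cx43-/- nodes no member was called, against 43.4% of all genes (40.7% lower, 2.69% higher). Groups without overlap, seen for Itgb2 alone of the members, were found in 54% of all genes, 50.6% with the depleted libraries lower and 3.39% with them higher. In this comparison 6834 genes, Cx3cr1 and Itgb2 among them, had an unadjusted limma p under 0.05.

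Itgal and Itgax were near the lower end of what was tested. Itgal stood at 3.30, 1.25 and 0.84 CPM in control, 1.18, 1.95 and 1.75 CPM in Cx3cr1 Cx43-/- and 1.48, 0.73 and 1.89 CPM in macrophage-depleted libraries. Library 1 was the highest, and the 3 groups overlapped. Itgax stood at 2.22, 0.00 and 1.52 CPM in control, 0.80, 0.99 and 0.27 CPM in Cx3cr1 Cx43-/- and 0.59, 1.02 and 0.54 CPM in macrophage-depleted libraries. Control thus held both the 2 highest values and the lowest, the 0 of library 2, where a count of 0 allows up to 0.0558 CPM (3 reads, counting error only). Between macrophage-depleted and control nodes the log2 difference was -0.20 for Itgal (SE 0.43, limma adjusted p = 0.723) and -0.22 for Itgax (SE 0.53, limma adjusted p = 0.757). The 95% confidence intervals ran from -1.09 to 0.68 and from -1.32 to 0.88, so that a fall and a rise of either gene lay within them. Neither gene was called in the other 2 comparisons, with differences between -0.29 and 0.07.

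**Figure D2:**
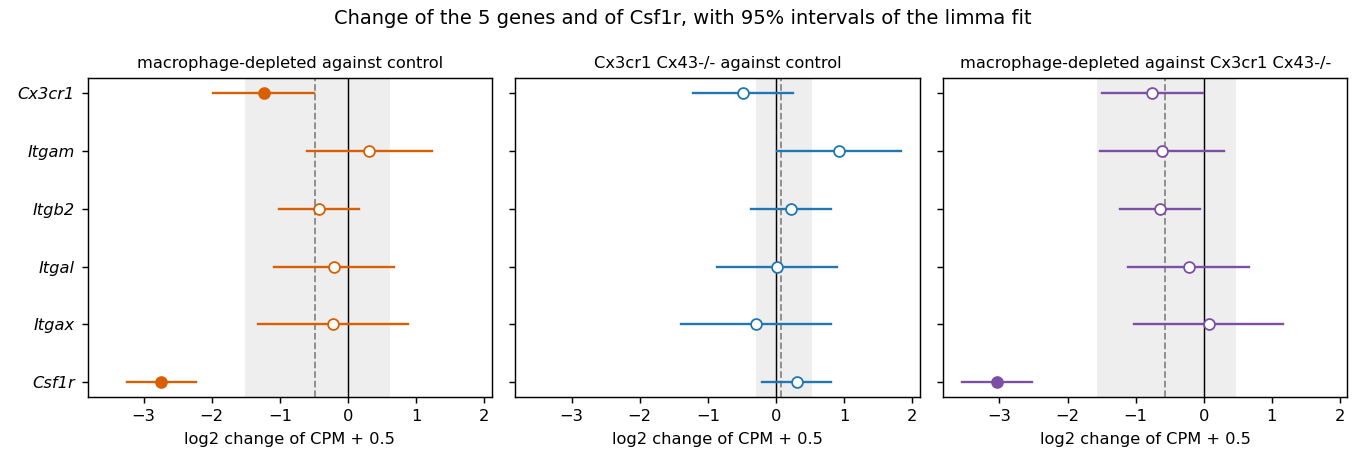
Log2 difference of each member and of Csf1r in the 3 comparisons, with 95% confidence intervals from limma. Filled points are called genes, the dashed line is the median of all 12925 genes and the shaded band runs from their 5th to their 95th percentile. Among the members the single filled point is Cx3cr1 in macrophage-depleted against control nodes, and the intervals of Itgal and Itgax all include 0.

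Per length of exon, Itgb2 had the highest mean of the members in each group. CPM per kilobase was computed with exon lengths from GENCODE M21, which is another annotation than that of the files. Itgb2 stood at 2.73 ± 0.660 CPM per kilobase in control nodes, 3.22 ± 0.892 in Cx3cr1 Cx43-/- and 1.97 ± 0.369 in macrophage-depleted nodes (SD, n = 3 each). Itgam was at 1.08 ± 0.740, 1.82 ± 0.423 and 1.31 ± 0.765 CPM per kilobase, while Cx3cr1 was at 1.23 ± 0.389, 0.867 ± 0.380 and 0.459 ± 0.173. In control nodes Cx3cr1 and Itgam did not differ beyond their spread per kilobase. Itgal, at 0.282 ± 0.207 in control, and Itgax, at 0.288 ± 0.262, were several times lower per kilobase and could not be ordered. Of the summed level of the alpha subunits Itgam, Itgal, Itgax and Itgad per kilobase, Itgam made up 64.6% ± 4.12 in control nodes, 78.2% ± 1.49 in Cx3cr1 Cx43-/- and 71.3% ± 12.2 in macrophage-depleted nodes (SD, n = 3 each). CD11b was thus the leading alpha subunit at the RNA level in each group. The alpha sum came to 58.6% ± 32.9 of Itgb2 in control nodes, 73.2% ± 7.58 in Cx3cr1 Cx43-/- and 85.3% ± 29.3 in macrophage-depleted nodes. In GENCODE M21 exons of Itgam overlap those of Gm49368 on the same strand and exons of Cx3cr1 those of the antisense gene Gm33858. The sources used here do not tell how reads in such overlaps were counted, so the levels of both genes are uncertain to that extent.

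**Figure D3:**
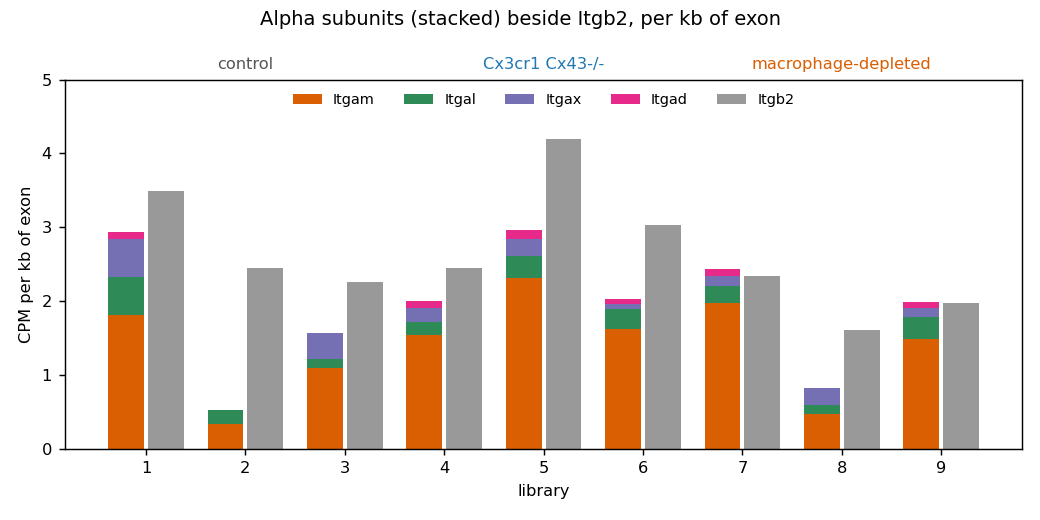
CPM per kilobase of exon of Itgb2 beside the stacked alpha subunits Itgam, Itgal, Itgax and Itgad in each library. The alpha stack is mostly Itgam in every library, and it is lowest against Itgb2 in library 2, at 21.5%.

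Ratios within a library, taken as differences of log2(CPM + 0.5), depend little on the scaling of the CPM. They were compared by exact permutation tests, two-sided, whose smallest p is 0.1 with 3 libraries against 3. The log2 ratio of Itgam to Itgb2 was -0.20, -1.86 and -0.29 in control nodes, 0.05, -0.13 and -0.16 in Cx3cr1 Cx43-/- and 0.46, -0.89 and 0.30 in macrophage-depleted libraries. Libraries 2 and 8 were again the lowest. The difference of macrophage-depleted from control was 0.74 (exact permutation p = 0.4, adjusted p = 0.6), and that of Cx3cr1 Cx43-/- from control was 0.71, with groups that did not overlap (exact permutation p = 0.1, adjusted p = 0.3). Without library 2 these differences were 0.20 and 0.17. The log2 ratio of Itgam to Cx3cr1, the driver of one model over that of the other, was 0.52, -1.81 and 0.51 in control nodes, 1.32, 1.72 and 0.41 in Cx3cr1 Cx43-/- and 2.12, 0.56 and 1.19 in macrophage-depleted libraries. All depleted libraries lay above all control libraries, library 8 by a small margin. This difference was 1.55 (exact permutation p = 0.1, adjusted p = 0.3), and 0.77 without library 2.

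Set against Csf1r, both driver genes stood higher in each macrophage-depleted library than in any other. Csf1r itself changed by -2.74 from control and -3.04 from Cx3cr1 Cx43-/-, which is -2.25 and -2.46 relative to the median gene. A gene with the median change would therefore also stand higher against Csf1r by those amounts. Of the differences below, only that of Itgam from control is larger. The log2 ratio of Cx3cr1 to Csf1r was -3.53, -2.48 and -3.91 in control nodes, -4.32, -4.42 and -3.53 in Cx3cr1 Cx43-/- and -1.82, -1.77 and -1.84 in macrophage-depleted libraries. The depleted libraries lay above all others and close to one another. Their difference was 1.50 from control and 2.29 from Cx3cr1 Cx43-/- (exact permutation p = 0.1, adjusted p = 0.3, each). The log2 ratio of Itgam to Csf1r was -3.01, -4.30 and -3.39 in control nodes, -3.005, -2.71 and -3.12 in Cx3cr1 Cx43-/- and 0.31, -1.20 and -0.64 in macrophage-depleted libraries. Its difference was 3.05 from control and 2.43 from Cx3cr1 Cx43-/-, again without overlap and at the smallest p of the design (exact permutation p = 0.1, adjusted p = 0.3, each). The adjusted values cover 18 tests, of 6 ratios in 3 comparisons, and no p below 0.05 was possible in this design. The ratios of Itgal and Itgax to Itgb2 overlapped between macrophage-depleted and control nodes, with differences of 0.22 and 0.20.

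**Figure D4:**
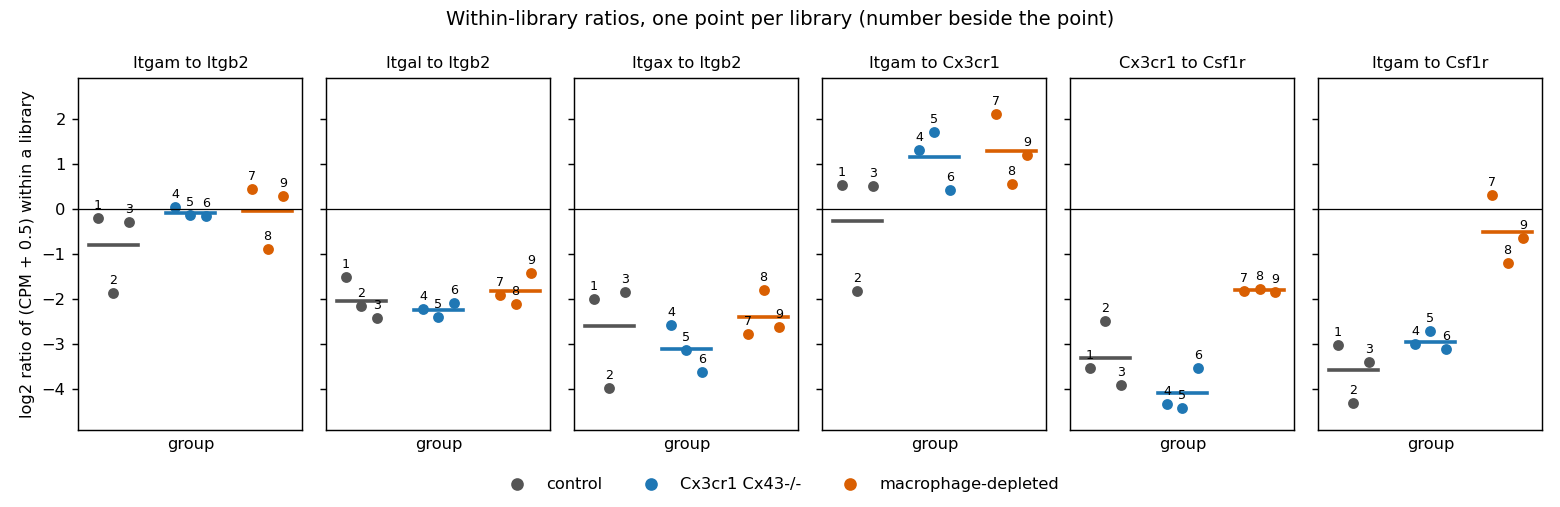
Log2 ratios of CPM within each library, by group, for the 6 pairs compared. Points are libraries with their numbers and bars are group means. The ratios of Cx3cr1 and Itgam to Csf1r are higher in libraries 7 to 9 than in all others, and Csf1r itself is lowest in those libraries.

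Around the fractalkine receptor, Cx3cl1, the ligand, stood at 12.6, 8.18 and 10.2 CPM in control, 11.1, 12.7 and 11.8 CPM in Cx3cr1 Cx43-/- and 9.35, 7.23 and 7.71 CPM in macrophage-depleted libraries. The depleted libraries overlapped control, and the log2 difference was -0.32 (limma adjusted p = 0.321). While 33% of all genes were lower and 3.23% higher in macrophage-depleted than in control nodes, 4 of the 5 genes of this axis were lower and 0 were higher. They were Cx3cr1, the G protein subunit Gnai2 (-0.69), and the proteases Adam17 (-0.69) and Adam10 (-0.55), and the median of the list was -0.69 against -0.49 over all genes. No gene of this axis was called after scaling to a common total or by median of ratios, and 1 was lower with quantile normalization. Without libraries 2 and 8 the number lower was 3. Over all genes tested 1811 were lower with quantile normalization and 4049 without libraries 2 and 8.

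Of 13 genes that switch beta-2 integrins on or signal with them, 2 were called higher and 2 lower in macrophage-depleted than in control nodes. The shares over all genes were 3.23% higher and 33% lower. Against Cx3cr1 Cx43-/- nodes 0 were higher and 5 lower, which were Fyb, Cyth1, Fermt3, Syk and Tln1. Over all genes 2.69% were higher and 40.7% lower there. In that comparison the 13 genes gave 3 higher and 1 lower with the common total and 3 and 0 with median-of-ratios scaling. Without libraries 2 and 8 they gave 0 higher and 3 lower. Over all genes tested the common total gave 1095 higher and 2702 lower there, and median of ratios 1691 and 1671. Leaving out libraries 2 and 8 gave 267 higher and 5026 lower over all genes tested. Fgr, a Src-family kinase of myeloid cells, read 0.18, 0.00 and 0.12 CPM in control, 0.65, 0.73 and 0.36 CPM in Cx3cr1 Cx43-/- and 1.35, 1.53 and 1.92 CPM in macrophage-depleted libraries, with no overlap between the depleted and control groups. It reached 1 CPM only in the depleted libraries and so passed the filter only through the group in which it was high, which makes its call no support. The other gene called higher was Apbb1ip, which encodes the RAP1 effector RIAM that brings talin to integrins and rose by 0.83 (limma adjusted p = 0.0393). Cyth1, a regulator of LFA-1 adhesion, fell by 0.95, and Syk, a kinase that signals downstream of integrins and Fc receptors, fell by 0.77. Against control the counts without libraries 2 and 8 were 0 higher and 3 lower, and with the common total or median-of-ratios scaling 3 higher and 1 lower. Over all genes tested, leaving out those libraries gave 250 higher and 4049 lower. The common total gave 1136 and 2534 over all genes, and median of ratios 1685 and 1675. Tln1 and Rap1b, the most abundant of the 13 genes and found in most cell types, were not called against control, with log2 differences of -0.36 and 0.30.

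Over all genes 33% were lower and 3.23% higher in macrophage-depleted than in control nodes, with a median of -0.49. Of 8 ligands of the beta-2 integrins tested, 4 were lower and 2 higher, with a median of -0.71. Those lower were Icam2 (-0.97), a ligand of LFA-1 on endothelium, and the junctional adhesion molecules Jam3 (-0.996), F11r (-0.78) and Jam2 (-0.64). Thy1 (0.75) and C3 (0.69) rose. C3, the complement protein whose fragment iC3b is bound by Mac-1, stood at 301 ± 90.8 CPM in control and 481 ± 117 CPM in macrophage-depleted nodes (SD, n = 3 each), and its groups overlapped. Icam1, the best known ligand of both LFA-1 and Mac-1, was nearly level, with a log2 difference of -0.03 (limma adjusted p = 0.933). Without libraries 2 and 8 the ligands gave 0 higher and 4 lower, and with median-of-ratios scaling 2 higher and 1 lower. All genes tested gave 250 higher and 4049 lower without those libraries, and 1685 and 1675 with median of ratios.

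Of the 19 other integrin subunits tested, 6 were lower and 1 was higher in macrophage-depleted than in control nodes, with a median of -0.66. Over all genes 33% were lower and 3.23% higher, with a median of -0.49. The number of subunits lower was 4 with the common total, median-of-ratios scaling or quantile normalization and 7 without libraries 2 and 8. The number higher was 2 with median of ratios and 3 with quantiles. With those scalings 28.4%, 26% and 26.2% of all genes were called in either direction, and 33.7% without libraries 2 and 8. The most abundant of the 19 subunits, Itgb1 (-0.15), Itga7 (-0.49) and Itgb5 (-0.40), the subunits of muscle and stromal integrins, were not called. On the deposited scale the gene called higher was Itga5, the fibronectin receptor subunit, named after its values were seen. It stood at 60.4, 40.7 and 50.2 CPM in control, 50.2, 57.9 and 50.3 CPM in Cx3cr1 Cx43-/- and 234, 125 and 94.3 CPM in macrophage-depleted libraries, and its log2 change was 1.48 (SE 0.26, limma adjusted p = 1.66e-04). Its depleted libraries lay above all others, unlike those of Itgam.

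Among genes of the toxin receptor and its target, Hbegf, the precursor of the growth factor that serves as the cell-surface receptor for diphtheria toxin, was higher in the macrophage-depleted nodes. It read 10.4, 13.9 and 13.9 CPM in control, 10.1, 13.3 and 11.8 CPM in Cx3cr1 Cx43-/- and 53.8, 27.7 and 18.8 CPM in macrophage-depleted libraries. The depleted libraries lay above all others but spread widely, library 7 being the highest. The log2 change was 1.24 (SE 0.29, limma adjusted p = 0.00245). Whether reads from a toxin receptor transgene were counted under this mouse symbol was not tested. Of the 11 genes of the list, Hbegf was higher and Dph2, a gene of the pathway that makes the diphthamide residue the toxin modifies, was lower (-0.87, limma adjusted p = 0.0493). The shares over all genes were 3.23% higher and 33% lower. With the common total 3 of the 11 were higher and 0 lower, and with median-of-ratios scaling 5 were higher and 0 lower. Quantile normalization gave 3 higher and 1 lower. Over all 12925 genes the counts were, in the same order, 1136, 1685 and 1579 higher and 2534, 1675 and 1811 lower. Without libraries 2 and 8 Hbegf was higher and 0 genes were lower. The toxin target Eef2 (-0.55) and the protease Furin (-0.06), which activates the toxin, were not called. In Cx3cr1 Cx43-/- against control nodes no gene of any of these lists was called.

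**Figure D5:**
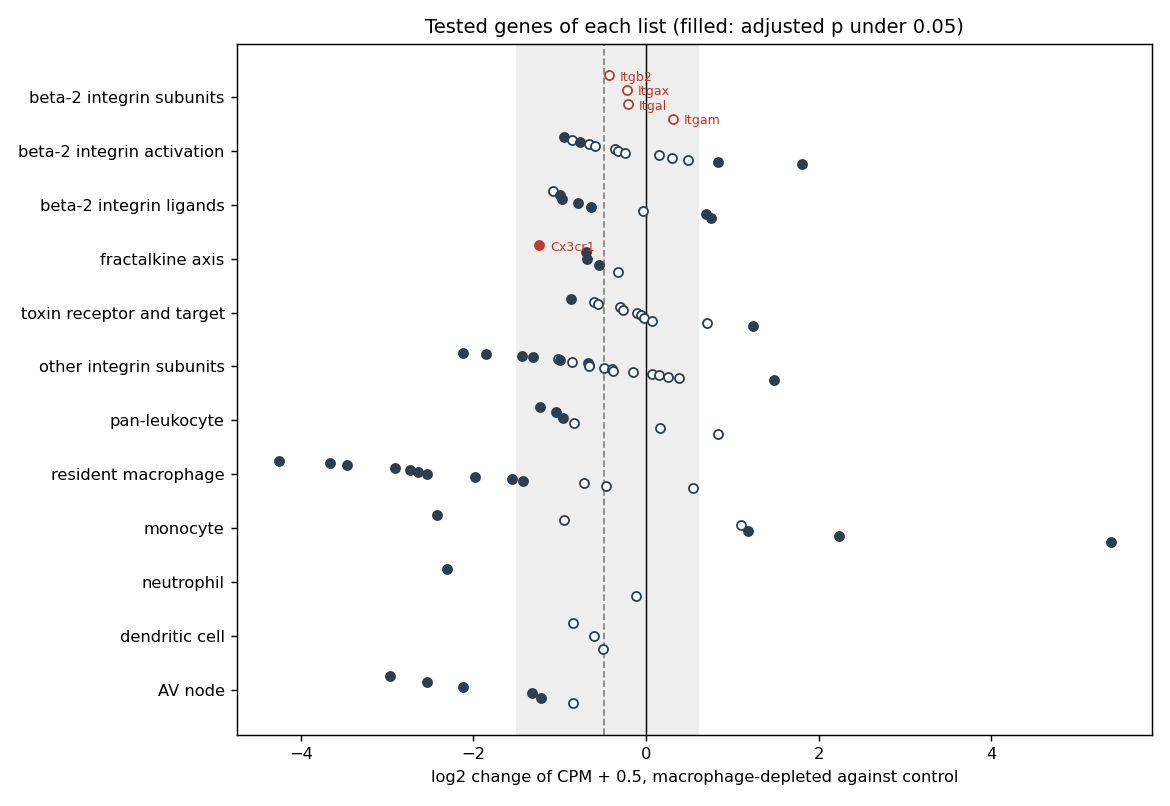
Log2 change in macrophage-depleted against control nodes of the tested genes of each list, with called genes filled, the members in red, the median change of all genes as a dashed line and their 5th to 95th percentile shaded. The beta-2 subunits hold no called gene, while most resident macrophage markers lie far below the line and the 3 monocyte markers called higher lie above it.

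Markers of the cell types that could carry the members were measured alongside. Their counts stand beside shares over all genes of 33% lower and 3.23% higher in macrophage-depleted than in control nodes. Of 13 resident macrophage markers 10 were lower and 0 higher in macrophage-depleted than in control nodes, with a median of -2.53 (11 lower without libraries 2 and 8). Their summed level was 257 to 409 CPM in control, 397 to 532 CPM in Cx3cr1 Cx43-/- and 66.6 to 75.7 CPM in macrophage-depleted libraries. The most abundant, Csf1r (-2.74), C1qa (-2.53) and C1qb (-1.99), which encode the macrophage growth-factor receptor and chains of complement C1q, fell more than Cx3cr1. Of 6 monocyte markers tested 3 were called higher, Chi3l3, Plac8 and Ccr2, and F13a1 was lower (2 higher and 1 lower of 5 without libraries 2 and 8). Their summed level, over the 8 of the list, was 39.2 to 75.1 CPM in control, 67.6 to 99.2 CPM in Cx3cr1 Cx43-/- and 42.8 to 59.6 CPM in macrophage-depleted libraries. F13a1, the marker called lower, made up most of the control sums, at 65.2, 34.9 and 48.6 CPM. It read 12.2, 6.64 and 7.62 CPM in macrophage-depleted libraries, so the sums hide the rise of the markers called higher. Chi3l3, a chitinase-like protein of monocytes and other myeloid cells, read at most 0.03 CPM in control and 12.4 to 28.7 CPM in macrophage-depleted libraries, and it passed the filter only through the latter, so its call is no support. Ccr2, the chemokine receptor of recruited monocytes, rose by 1.19 on the log2 scale (limma adjusted p = 0.0213). It read 6.53, 1.65 and 4.45 CPM in control and 6.16, 8 and 15.1 CPM in macrophage-depleted libraries, so its groups overlapped. Those of Plac8 overlapped too, at 1.14, 1.93 and 0.02 CPM in control and 6.28, 12.8 and 1.91 CPM in macrophage-depleted libraries. Of 6 markers shared by all leukocytes 3 were lower, Cd53 (-1.23), Ptprc (-1.05) and Laptm5 (-0.96), and 0 were higher. The number lower was 1 with median-of-ratios scaling, 0 with quantile normalization, where 1 was higher, and 2 without libraries 2 and 8. Over all genes tested median of ratios gave 1675 lower, and quantiles 1811 lower and 1579 higher. Without those libraries 4049 genes were lower.

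Neutrophils and natural killer cells also carry CD11b. The 11 neutrophil markers summed to 3.96 to 6.63 CPM in control, 3.15 to 6.51 CPM in Cx3cr1 Cx43-/- and 1.77 to 7.61 CPM in macrophage-depleted libraries, and Ly6g was at 0 in all 9. Within this sum the members went different ways. Mmp9, a metalloprotease also made by other cells, read 5.25, 3.40 and 2.91 CPM in control and 0.83, 0 and 0.45 CPM in depleted libraries (limma adjusted p = 4.60e-04), and was the one gene called of the 2 tested. S100a8, a calcium-binding protein abundant in neutrophils, read 0.13, 0 and 0 CPM in control and 3.31, 1.63 and 0 CPM in depleted libraries, and S100a9, its partner, 0.02, 0 and 0 against 1.43, 1.52 and 0.28 CPM. Cxcr2, a neutrophil chemokine receptor, read at most 0.03 CPM in control and 0.35 to 0.40 CPM in depleted libraries. These 3 did not pass the filter and were not tested. Csf3r, the other gene tested, was not called and read 1.14, 0.78 and 0.91 CPM in control and 0.78, 1.02 and 0.69 CPM in depleted libraries. Camp and Ltf were at 0 in all depleted libraries, while Mmp8, Ngp and Retnlg were at 0 in control and above 0 in part of the depleted libraries. The 12 T and natural killer cell markers summed to at most 3.69, 7.81 and 4.51 CPM in the same order of groups and the 5 B cell markers to at most 1.92, 1.22 and 0.09 CPM, and none of them passed the filter on low values. The 7 dendritic cell markers, a type in which Itgax is high, summed to 12.8 to 18.3 CPM in control, 9.46 to 13.03 CPM in Cx3cr1 Cx43-/- and 7.89 to 11.1 CPM in macrophage-depleted libraries, and none of the 3 tested was called. As for the tissue, the 6 AV node markers summed to 258 to 306 CPM in control, 210 to 277 CPM in Cx3cr1 Cx43-/- and 54.7 to 86.5 CPM in macrophage-depleted libraries, 5 of them being lower in depleted than in control nodes (Cacna2d2, Hcn4, Cacna1g, Tbx3 and Gjc1). Of all genes 33% were lower in that comparison. The part of the marker shifts in the levels of the members was not tested.

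The likeness of the members to one another across the 9 libraries differed from pair to pair. After centring each gene on its mean, the root-mean-square difference on the log2 scale was smallest between Itgb2 and Itgal, at 0.33, and largest between Cx3cr1 and Itgam, at 1.06. Even so, Itgal ranked only 3792 in likeness to Itgb2, whose own root-mean-square deviation from its mean was 0.37. In likeness to Itgam, Itgal (0.64) ranked 951 and Itgb2 (0.66) ranked 1182 among the genes tested, while in likeness to Cx3cr1 Itgam ranked 12381. The genes with the pattern most like Cx3cr1 were Gm16882 (0.23), Cabp1 (0.27) and Slc2a9 (0.27). For Itgam they were BC023105 (0.25), Spag5 (0.26) and Dnahc7b (0.26), for Itgb2 Cmah (0.11), Huwe1 (0.11) and Cdc25a (0.12). For Itgal they were 6720463M24Rik (0.27), Cep290 (0.27) and Iqgap2 (0.27), and for Itgax 2610020H08Rik (0.36), Gm3222 (0.36) and Kctd8 (0.37). The likeness is a description of these 9 libraries, in which genes also share depth. Within groups the SD on the log2 scale was 0.32 for Itgb2, 0.47 for Cx3cr1, 0.56 for Itgal, 0.83 for Itgax and 0.86 for Itgam, the last with libraries 2 and 8 far below the others.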

How the data were processed

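Bulk RNA-sequencing of microdissected AV nodes was analysed, 9 libraries in all and 3 per group. The authors deposited CPM values per gene symbol, rounded to 2 decimals. The submitters' processing notes name the aligner STAR (2.3.0), HTSeq (0.6.0), edgeR and mm9 without saying what each was used for, and the libraries were made with a strand-directional kit per the labels' protocols. Each of the columns was matched to its sample by name. Values were taken as log2(CPM + 0.5), which understates the change of low genes, and fitted with limma 3.58.1 in R 4.3.3, with a trended variance and 3 two-sided contrasts, for genes at 1 CPM or more in at least 3 libraries. P-values were adjusted over all genes tested. Reads were not rebuilt from the rounded CPM, and no count model was fitted. Ratios were compared by exact permutation tests in scipy 1.17.1. Scripts were tested on simulated data. The members and the 14 gene lists were chosen with earlier results of these data known. Named by rule were the members, Hbegf, Cx3cl1, Gja1, Csf1r, Itgad, the 3 genes nearest to each member, any list member at 0 in all libraries, and of each list the genes called in macrophage-depleted against control nodes if 5 or fewer, otherwise the 3 with the highest mean. Genes outside the rule (Icam1, Icam2, Jam3, Thy1, Itga5, Tln1, Rap1b, Fyb, Fermt3, Eef2, Furin, S100a8, S100a9, Cxcr2, Csf3r, Camp, Ltf, Mmp8, Ngp and Retnlg) were named after their values were seen. Alternatives were another pseudocount, filter or scaling, library weights and leaving out libraries.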

Additional observations from a re-analysis of the deposited data

How the results depend on the processing

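For the 5 members 294 alternatives were run on 15 differences, of which 254 kept both the direction and the side of the threshold, 5 lost the call, 4 gained one and 31 changed sign. The cause was not tested. The 144 alternatives of the 18 ratio differences all moved by less than the spread between libraries, which is wide, as without library 2 the Itgam to Itgb2 difference of Cx3cr1 Cx43-/- from control fell from 0.71 to 0.17. Leaving out libraries 2 and 8, or 2, 8 and 9, was chosen after seeing the data. No paired analysis was possible because the groups share no replicate numbers.

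In macrophage-depleted against control nodes the number of members called, 1 in the report, was 0 with no filter on low values, with the common total, with median-of-ratios scaling, with quantile normalization and without libraries 2 and 8. The adjusted limma p of Cx3cr1 ranged from 0.00417 to 0.182, and leaving out single libraries gave -1.49 to -1.05. In macrophage-depleted against Cx3cr1 Cx43-/- nodes the number of members called, 0 in the report, was 3 with library quality weights (Cx3cr1, Itgam and Itgb2), and leaving out single libraries gave 0 to 1, the call coming without library 7.

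Signs turned mostly for genes with differences near 0. Macrophage-depleted against control gave 0.13 for Itgax with a pseudocount of 0.1, 0.10 with median-of-ratios scaling and 0.14 with quantile normalization. It gave 0.0568, 0.17 and 0.41 for Itgal with the common total, median of ratios and quantiles, and -0.52 to 0.23 leaving out single libraries. It gave 0.0311 and 0.0810 for Itgb2 with median of ratios and quantiles, and -0.59 for Itgam with library weights, with -0.28 to 0.87 leaving out single libraries. Cx3cr1 Cx43-/- against control gave for Itgal -0.0182 with a pseudocount of 2, -0.0172 with the common total, -0.0353 with median of ratios, -0.0747 with quantiles, -0.25 with library weights, -0.10 without libraries 2 and 8 and also without 2, 8 and 9, and -0.30 to 0.46 leaving out single libraries. Macrophage-depleted against Cx3cr1 Cx43-/- gave for Itgal 0.0740, 0.21 and 0.49 with the common total, median of ratios and quantiles, 0.0509 without libraries 2 and 8, and -0.43 to 0.0509 leaving out single libraries. It gave -0.22 to 0.26 for Itgax leaving out single libraries and 0.13 for Itgam without libraries 2, 8 and 9, where the lone depleted library is assumed to vary like the other groups. Itgax, at about 16 to 139 reads outside library 2, and Itgal, at 38 to 206 reads, are the members whose depth limits them most.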
